A study of Homo sapiens with 22 samples.

Results

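TC-32, an established cell line grown from an Ewing sarcoma, carries the gene fusion EWSR1::FLI1. Its cells were reverse transfected with siRNA at 20 nM, either the control siNEG or siFLI1, which targets the FLI1 part and so the fusion. H3K27ac, an acetylation of histone H3 found at active promoters and enhancers, was mapped by chromatin immunoprecipitation and sequencing. The regions described here are the H3K27ac regions beside GGAA microsatellites. The peak lists of siNEG replicates 1 and 2 and of siFLI1 replicates 1 and 2 were merged wherever intervals shared 1 bp, on chromosomes 1 to 22 and X, and a merged region was kept as a member when a run of at least 4 consecutive GGAA units, on either strand of hg38, came within 1 kb of its centre. It uses the sequence and not the siRNA arm. All groups share this 1 cell line, and the time from transfection to fixation with formaldehyde was not given in the sources used here. The rule gave 1695 members of 90572 merged regions. The members lay beside 1320 distinct longest runs, and 325 of these runs were shared by 2 members and 25 by 3, so members are not independent sites. The labels do not say whether replicates were separate transfections, and p-values then measure only the spread between these libraries.

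EWSR1::FLI1 joins the activation domain of EWSR1 to the ETS-type DNA-binding domain of FLI1. FLI1 and other ETS factors bind single sites with a GGAA core. The fusion is also known to bind tandem GGAA repeats, which are otherwise mostly silent, and to open the chromatin beside them into enhancers that carry H3K27ac. Several genes that Ewing sarcoma cells depend on are driven from such repeats.

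The runs beside 3 groups of members are shown because the groups differ in their presence between the arms. Each sequence is hg38 read in the GGAA direction, with the longest run in capitals and 40 reference bases on each side in lower case. Unit numbers throughout are those of hg38, and the alleles of TC-32 may differ in length. The first 6 lay beside members that were in both siNEG lists and in neither siFLI1 list. They are named by the nearest gene or by a gene with known fusion-driven expression: CCNA1 at chr13:36480999-36481146 (plus strand), NKX2-2 at chr20:21576244-21576403 (minus strand), PAX7 at chr1:18611233-18611384 (plus strand), CALCB at chr11:14934900-14935043 (minus strand), EGR2 at chr10:62693140-62693267 (plus strand) and SOX6 at chr11:16022292-16022415 (minus strand).
CCNA1: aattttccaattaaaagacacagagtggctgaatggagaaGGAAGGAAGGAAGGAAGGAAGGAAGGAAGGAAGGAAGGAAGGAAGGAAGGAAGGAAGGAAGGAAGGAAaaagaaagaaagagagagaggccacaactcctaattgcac
NKX2-2: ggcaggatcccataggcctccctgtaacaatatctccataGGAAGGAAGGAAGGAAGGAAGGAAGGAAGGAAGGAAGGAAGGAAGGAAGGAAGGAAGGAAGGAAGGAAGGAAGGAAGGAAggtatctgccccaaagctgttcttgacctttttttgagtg
PAX7: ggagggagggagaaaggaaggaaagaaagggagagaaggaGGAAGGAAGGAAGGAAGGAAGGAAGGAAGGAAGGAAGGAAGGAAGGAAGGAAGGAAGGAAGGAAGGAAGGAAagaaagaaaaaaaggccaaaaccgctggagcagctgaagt
CALCB: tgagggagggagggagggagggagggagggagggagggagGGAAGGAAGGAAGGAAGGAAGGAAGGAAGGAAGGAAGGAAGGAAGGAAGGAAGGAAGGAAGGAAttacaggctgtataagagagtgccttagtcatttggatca
EGR2: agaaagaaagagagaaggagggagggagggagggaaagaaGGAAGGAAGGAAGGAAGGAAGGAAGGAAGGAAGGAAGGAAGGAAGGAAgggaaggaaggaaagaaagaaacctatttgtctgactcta
SOX6: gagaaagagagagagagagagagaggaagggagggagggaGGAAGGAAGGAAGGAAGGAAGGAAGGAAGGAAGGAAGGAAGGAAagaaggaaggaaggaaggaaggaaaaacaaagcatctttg

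The next 2 lay beside members in all 4 lists, near VRK1 at chr14:97065999-97066150 (minus strand) and near LAX1 at chr1:203770417-203770552 (plus strand). The last 2 lay beside members in both siFLI1 lists and in neither siNEG list, near MED24 at chr17:40021540-40021635 (plus strand) and near SMURF2 at chr17:64700173-64700268 (minus strand). The runs of the first 6 sequences held 17, 20, 18, 16, 12 and 11 units. Those at VRK1 and LAX1 held 18 and 14 units, and those at MED24 and SMURF2 held 4 units each. None of the 10 stretches overlapped an annotated exon.
VRK1: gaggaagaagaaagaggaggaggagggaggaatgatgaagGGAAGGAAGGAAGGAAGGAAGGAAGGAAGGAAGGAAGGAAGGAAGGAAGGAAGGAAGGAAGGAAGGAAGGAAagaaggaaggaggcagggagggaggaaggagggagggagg
LAX1: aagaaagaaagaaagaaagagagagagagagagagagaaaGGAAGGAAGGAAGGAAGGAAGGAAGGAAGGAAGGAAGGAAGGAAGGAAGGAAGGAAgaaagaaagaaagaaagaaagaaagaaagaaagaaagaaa
MED24: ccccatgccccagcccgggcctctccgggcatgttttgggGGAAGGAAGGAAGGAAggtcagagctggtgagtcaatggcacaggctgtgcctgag
SMURF2: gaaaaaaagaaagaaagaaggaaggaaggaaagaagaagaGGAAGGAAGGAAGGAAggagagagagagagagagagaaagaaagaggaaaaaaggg

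The deposited H3K27ac lists held 60033 and 60404 peaks in siNEG and 65509 and 61485 in siFLI1, called for each library separately. Read depth was not given in the sources used here, and a list holds no signal where no peak was called, and presence is therefore no direct readout of how much mark a site carried. A lower share of cells with the mark and a lower amount of the mark per cell cannot be told apart. The H3K27ac and H3K4me3 lists had a peak within 1 kb of a transcription start site (TSS) of all 5 Ewing sarcoma genes examined (CD99, NKX2-2, NR0B1, STEAP1 and LIPI) in every library of both arms. The muscle genes MYOD1 and MYOG and the leukocyte genes PTPRC and CD3E had 0 in every library. Of the other marker genes reported here, HAND2, a neuroblastoma marker, had H3K27ac and H3K4me3 in every library, like the 5 Ewing sarcoma genes. The epithelial gene EPCAM had H3K27ac in all 4 lists and H3K4me3 in siNEG replicate 1 only. CDH1, also epithelial, had H3K27ac in both siFLI1 lists only and no H3K4me3. Whether the CDH1 mark bears on the members was not tested. These peak lists hold no measure of the fusion itself, so its depletion was not checked here.

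Fewer members were held by the siFLI1 lists than by the siNEG lists. The siNEG lists held 1337 members in replicate 1 and 1172 in replicate 2, and the siFLI1 lists held 589 and 577. The arms did not overlap, although the siFLI1 lists were the longer ones, with 52365 and 48089 merged regions against 47191 and 45088. The mean was 1254 ± 117 members (SD, n = 2) in siNEG and 583 ± 8.49 (SD, n = 2) in siFLI1, or a log2 ratio (siFLI1 over siNEG) of -1.11 where the pooled within-arm SD on that scale was 0.10. Here and below, p-values come from a two-sided exact permutation test over the libraries, in which 2 against 2 cannot go below 0.33, and p was 0.33 here. All merged regions gave a log2 ratio of 0.12 and a pooled SD of 0.07 (exact p = 0.33). Members made up 2.83% and 2.60% of the regions held in siNEG and 1.12% and 1.20% in siFLI1.

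A region is called lost here when both siNEG lists and neither siFLI1 list held it, and gained in the opposite case. Of the members, 497 were lost, or 29.3% (exact 95% binomial interval 27.2% to 31.5%), where 4.86% of all merged regions were lost. Gained members numbered 46, or 2.71% (1.99% to 3.6%), where 8.19% of all merged regions were gained. A further 368 members, or 21.7%, were in all 4 lists, where 25.1% of all merged regions were. The intervals cover counting error over regions only, and regions are not replicates. In siNEG lists alone, whether 1 or both, were 968 members, or 57.1%, and in siFLI1 lists alone 175, or 10.3%, against 27.9% and 31.8% of all merged regions. The siNEG replicates differed, with 308 members in the list of replicate 1 alone and 163 in that of replicate 2 alone. Counts of lost and gained members depend on requiring both lists of an arm. Without siNEG replicate 2 the lost members numbered 856, or 52.8%, with 19.4% of all regions lost. Without siFLI1 replicate 1 the gained members numbered 120, or 7.16%, with 22.4% of all regions gained, and without siFLI1 replicate 2 they numbered 124, or 7.44%, with 25.2% of all gained.

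The share of lost regions was higher in classes with longer runs. Among regions whose longest run had 3 units, just outside the rule, 32 of 713 were lost, or 4.49%, and 53 were gained, or 7.43%. Among those with 4 units, just inside it, 27 of 284 were lost, or 9.51%, and 28 were gained, or 9.86%. With 5 units 24 of 163 were lost, or 14.7%, and with 6 to 9 units 100 of 338, or 29.6%. With 10 to 14 units 227 of 608 were lost, or 37.3% (33.5% to 41.3%), and with 15 or more units 119 of 302, or 39.4% (33.9% to 45.2%). From 4 units upward the share of gained regions went the other way, at 5.52% with 5 units, 1.48% with 6 to 9 units, 0.493% with 10 to 14 units and 0.331% with 15 or more. The share in all 4 lists lay between 18.9% and 23.3% in the classes of 4 or more units and was 25.1% with 3 units. Lost members had a median of 12 units, members in all 4 lists 10 and gained members 4.

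**Figure D1:**
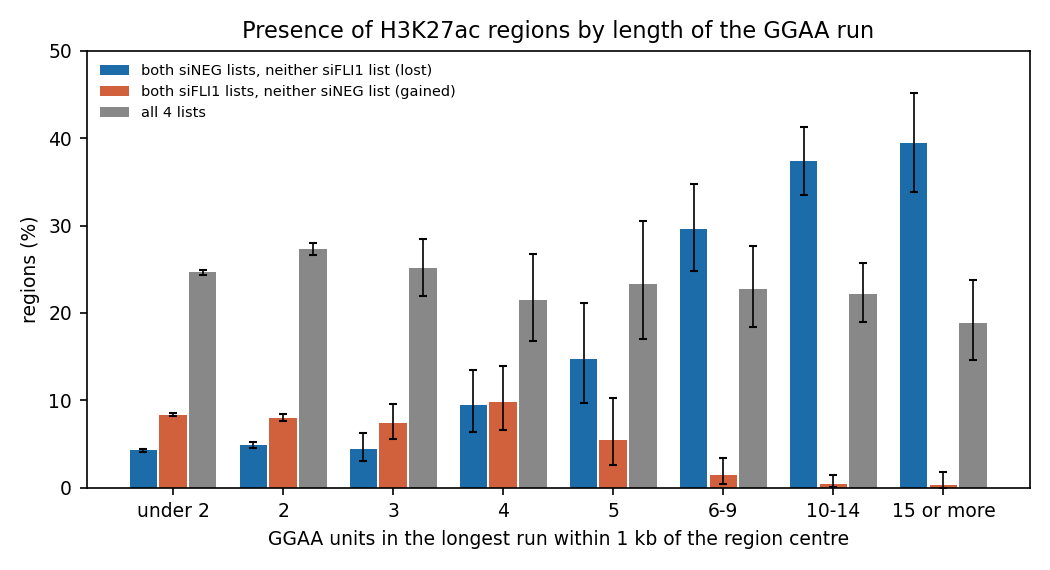
Percent of merged H3K27ac regions (vertical axis) that were lost, gained or in all 4 lists, by the number of GGAA units in the longest run within 1 kb of the region centre (horizontal axis). Bars are shares with exact 95% binomial intervals over regions. The share of lost regions is 4.49% at 3 units and 39.4% at 15 or more, and that of gained regions is 7.43% and 0.331%.

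At members with 10 or more units the siNEG lists held 805 and 695 members and the siFLI1 lists 253 and 247, or a log2 ratio of -1.58 against a pooled SD of 0.11 (exact p = 0.33). At members with 4 or 5 units the lists held 256 and 233 in siNEG and 216 in each siFLI1 replicate, or a log2 ratio of -0.18 against a pooled SD of 0.07 (exact p = 0.33). The arms did not overlap in either class, and the ratio was farther from 0 for the longer runs. Many runs were part of a longer imperfect repeat: 897 of the 1695 members, or 52.9%, had 3 or more further GGAA units of the same strand within 40 bases of the longest run. The SOX6 sequence above, with 6 such units in its flanks, is an example, whereas the NKX2-2 sequence has 0. Among members with 4 units, 8 of 119 with up to 2 flanking units were lost, or 6.72%, and 19 of 165 with 3 or more, or 11.5%. Among those with 15 or more units the shares were 42.4% and 35.2%, so flanking units did not go with a higher share there. Strand made little difference, with 29.6% lost where GGAA was on the plus strand and 29.1% where it was on the minus strand.

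The same comparison was made from the side of the genome, by asking for each GGAA run of hg38 whether a region of a list had its centre within 1 kb of it. Of 766 runs with 15 or more units, 25.7% and 23.5% lay beside a region held by the siNEG lists, and 10.2% and 9.27% beside one held by the siFLI1 lists. The means were 24.6% ± 1.57 (SD, n = 2) and 9.73% ± 0.646 (SD, n = 2; exact p = 0.33). For 2555 runs of 10 to 14 units the means were 16.7% ± 1.49 and 7.01% ± 0.0554 (SD, n = 2 each), and for 2785 runs of 6 to 9 units they were 9.68% ± 0.635 and 4.99% ± 0.152 (SD, n = 2 each). The arms did not overlap in any of these classes. For 275225 runs of 2 units the libraries did overlap, at 4.0% and 3.77% in siNEG and 4.15% and 3.89% in siFLI1. At 3 units the means were 3.92% and 3.19%, and at 4 units 4.66% and 3.17%. Short runs can lie beside a longer one, so these classes are not independent of each other. In siFLI1 the share was still higher for the longest runs than for runs of 2 units.

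**Figure D2:**
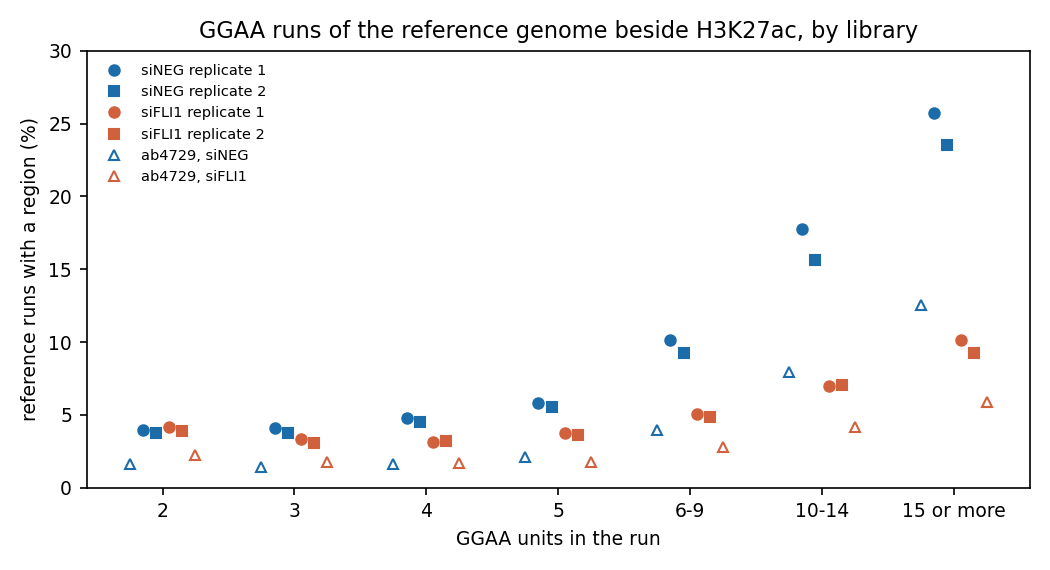
Percent of GGAA runs of hg38 that lay within 1 kb of the centre of a region held by a library (vertical axis), by units in the run (horizontal axis). Each point is 1 library, with filled symbols for the replicated libraries and open triangles for the ab4729 pair. At 15 or more units the siNEG replicates stand at 25.7% and 23.5% and the siFLI1 replicates at 10.2% and 9.27%.

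Members that stayed in all 4 lists had lower enrichment in siFLI1. The authors' fold enrichment, a ratio of the peak to its local background, was taken at the highest peak of each region. Its median over the 368 members in all 4 lists was 13.3 and 10.1 in the siNEG replicates and 6.29 and 6.58 in the siFLI1 replicates. Both siFLI1 values were below both siNEG values, and the log2 ratio of the means was -0.86, with 0.20 as the pooled SD (exact p = 0.33). For all 22724 regions in all 4 lists the medians were 7.49 and 6.18 in siNEG and 7.68 and 7.61 in siFLI1. Ranked within each list, the median member stood at the 91.4 and 91.0 percentile of fold enrichment in siNEG and at the 71.6 and 71.8 percentile in siFLI1. All regions in all 4 lists stood between the 77.4 and 79.5 percentile in the 4 libraries. Fold enrichment was lower in both siFLI1 lists than in both siNEG lists at 236 of the 368 members, or 64.1%, where 17.1% of all regions in all 4 lists were. It was higher in both siFLI1 lists at 30 members, or 8.15%, where 32.4% of all were.

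Run length separated these members too. With 4 units the median fold enrichment was 7.36 and 6.41 in siNEG and 7.88 and 7.24 in siFLI1, so the arms overlapped (61 members). With 6 to 9 units it was 13.1 and 8.56 against 6.08 and 6.22 (77 members), and with 10 to 14 units 17.1 and 12.0 against 6.24 and 6.40 (135 members). With 15 or more units it was 17.8 and 14.5 against 5.62 and 6.21 (57 members), and the log2 ratio of the means was -1.45, with 0.16 as the pooled SD (exact p = 0.33). In that class 50 of 57 members were lower in both siFLI1 lists and 0 were higher in both. The siNEG medians differed between classes far more than the siFLI1 medians did. Members with 4 units had fold enrichment close to that of all regions in both arms.

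**Figure D3:**
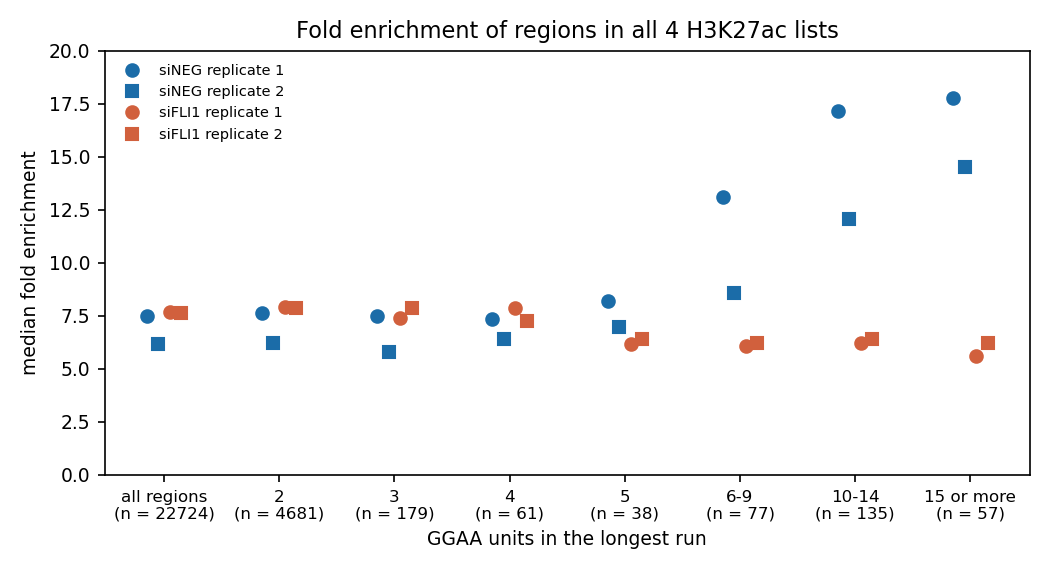
Median fold enrichment over local background (vertical axis) of H3K27ac regions present in all 4 lists, for all such regions and by units in the longest GGAA run (horizontal axis, with the number of regions). Each point is 1 library. The siNEG medians are 17.8 and 14.5 at 15 or more units, and the siFLI1 medians are 5.62 and 6.21.

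The run usually lay beside the acetylated interval. It was inside the region at 529 of 1695 members, or 31.2%, at 15.7% of lost members and at 84.2% of members in all 4 lists. With the run inside, the siNEG lists held 478 and 463 members and the siFLI1 lists 377 each, and with the run outside, 859 and 709 against 212 and 200. The arms did not overlap in either class. When a run inside the region was required in place of the distance to the centre, 11.1% of 830 members were lost, where 4.86% of all merged regions were. The log2 ratio of members held was then -0.23. The median distance from the region centre to the nearest base of the run was 574 bp for lost members (interquartile range 447 to 733 bp) and 472 bp for members in all 4 lists (230 to 728 bp). Lost members made up 12.9% of members with the run under 250 bp from the centre, 29.1% from 250 to under 500 bp, 38.1% from 500 to under 750 bp and 28.0% from 750 to 1000 bp. Width goes with this pattern. Lost members had a median width of 877 bp, gained members 725 bp and members in all 4 lists 3830 bp. At a width of 500 to under 1000 bp, 237 of 450 members were lost, or 52.7%, against 10.7% of all regions of that width, and at 2000 bp or more, 6.83% of members were lost against 0.816% of all.

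The lost share was also compared by run length within position classes. For regions under 1000 bp with the run outside, the lost share was 11.1% at 4 or 5 units, 31.9% at 6 to 9, 38.6% at 10 to 14 and 41.5% at 15 or more. With the run inside the region it was 6.75%, 17.4%, 16.1% and 24.7%, so it was not in order between 6 to 9 and 10 to 14 units. At 228 runs there was a member on each side and none over the run itself. Both were lost at 91 of these runs, 1 was lost at 73 and neither at 64. The runs near OXSM, CALCB and EGR2 are examples with both sides lost.

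**Figure D4:**
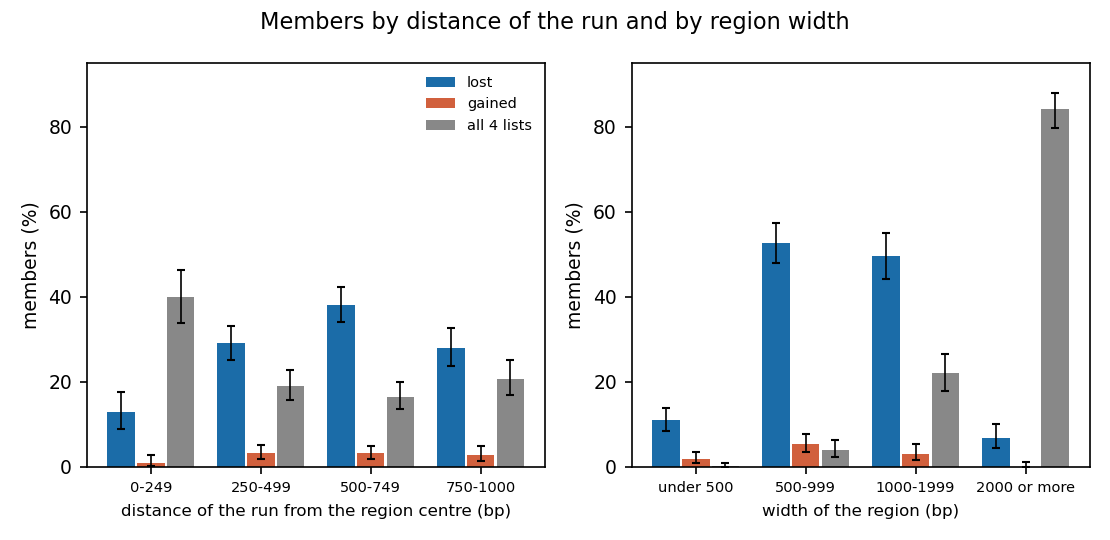
Percent of members lost, gained or in all 4 lists (vertical axes), by the distance in bp of the longest run from the region centre (left) and by region width in bp (right). Bars are shares with exact 95% binomial intervals over members. Lost members peak at 38.1% for runs from 500 to under 750 bp away, and 84.2% of members of 2000 bp or more are in all 4 lists.

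Members lay mostly away from promoters. The centre was within 1 kb of a TSS at 151 members, or 8.91%, against 23.6% of all merged regions. Among lost members 17, or 3.42%, were at a promoter, and among members in all 4 lists 53, or 14.4%. Over all merged regions, 10.6% of lost regions and 40.7% of regions in all 4 lists were at a promoter. Promoter members were lost in 11.3% of cases and other members in 31.1%, where all regions gave 2.18% and 5.69%. By the position of the centre, 35.8% of 651 intergenic members and 25.9% of 972 intronic members were lost. These shares were not computed for all merged regions, so the difference is not read as particular to members. The nearest TSS of a protein-coding gene was a median of 46.4 kb from lost members (interquartile range 13.8 to 150 kb) and 24.3 kb from members in all 4 lists (7.99 to 82.1 kb). For all lost regions that median was 17.4 kb.

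H3K4me3, a mark of promoters, was found at few members. It overlapped 100 and 105 members in the siNEG lists and 85 and 87 in the siFLI1 lists, and the log2 ratio of the means was -0.25, with 0.04 as the pooled SD (exact p = 0.33). Over all merged regions the shares were 19.3% and 19.7% in siNEG and 18.4% and 18.5% in siFLI1, so the arms did not overlap there either. In any of the 4 H3K4me3 lists were 11 of 497 lost members, or 2.21%, and 69 of 368 members in all 4 H3K27ac lists, or 18.8%. For all merged regions these shares were 7.90% of lost regions and 43.3% of regions in all 4 lists. ETS1 peaks, for an ETS factor that binds single GGAA-core sites, overlapped 0 members in both siNEG lists and 5 and 7 members in the siFLI1 lists, or 0.295% and 0.413% of members. The siFLI1 ETS1 lists were longer, with 1633 and 2635 peaks against 302 and 208, and overlapped 1.69% and 2.31% of all merged regions against 0.279% and 0.187% for the siNEG lists. The peak names in the siFLI1 ETS1 list labelled replicate 1 carry the number 2, so these lists are not read as 2 samples. All 7 of these members were in all 4 H3K27ac lists. They were nearest to SLC1A4, FNDC3B, FGF18, HIVEP2, SLAIN1, NPIPB3 and ZNF627, which are named because they were so few, and 5 of them lay at a promoter.

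The H3K27ac libraries labelled ab4729, 1 per arm, were not used to define the members. Their label pairs that antibody name with the catalogue number given for the other H3K27ac libraries, so the antibody behind them is uncertain. Their siNEG list held 486 members and their siFLI1 list 323, although the siNEG list was the shorter, with 32738 peaks against 51663. Of the 497 lost members, 125 were in the siNEG ab4729 list and 13 in the siFLI1 list. Of the 124 in exactly 1 of them, 118 were in the siNEG list, or 95.2% (exact 95% binomial interval 89.8% to 98.2%). For lost regions without such a run the share was 71.3% of 610, and for all regions in the 4 replicated lists 21.1% of 5434. In the siNEG ab4729 list only were 252 members, where 3.4% of all merged regions were, and in the siFLI1 list only 89 members, where 12.1% of all were. The 46 gained members gave 15 in the siFLI1 list only and 0 in the siNEG list only. Among 207 members in all 4 replicated lists and in both ab4729 lists, the median fold enrichment was 8.89 in siNEG and 6.96 in siFLI1. There was 1 ab4729 library per arm, so the difference between arms has no replicate check.

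The lost members with the highest fold enrichment lay at runs of 11 to 20 units, and 9 of the strongest 10 were over 40 kb from a protein-coding TSS. By the lower of the siNEG values, the strongest was an intergenic region on chromosome 13 (36479716 to 36480844), 47.8 kb from the TSS of CCNA1, which encodes the cyclin A1 cell-cycle regulator. Its fold enrichment was 19.2 and 15.6 in the siNEG lists and 7.28 in the siNEG ab4729 list, and it was in no siFLI1 list. A region on chromosome 14 (38527234 to 38529098), 272 kb from CLEC14A, an endothelial surface lectin, had 19.2 and 12.6, and one on chromosome 9 (74125080 to 74129485), 370 kb from the nuclear receptor gene RORB, had 14.9 and 12.3. Both were beside runs of 16 units and in the siNEG ab4729 list with 6.69 and 6.58. A region on chromosome 20 (6611903 to 6612648) lay 155 kb from BMP2, a bone morphogenetic protein ligand, beside 11 units, with 12.4 and 11.5. An intronic region of the forkhead factor gene FOXP1 (chromosome 3, 71204268 to 71205379) had 10.1 and 10.2 beside 13 units. The others of the strongest 10 were nearest to XPNPEP1, SI, NKX2-2, VRK1 and STARD13, with a fold enrichment of 10.1 or more in both siNEG lists.

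The lost members with the longest runs were of mixed strength. The member near NKX2-2 had 20 units, and so did a pair of members on the 2 sides of 1 run near REEP3, with a fold enrichment of 5.51 and 5.81 on one side and 3.21 and 3.43 on the other. An intronic member of HECTD4 beside 20 units had 4.07 and 3.75. The run of 19 units near OXSM had a member on each side, at 8.48 and 6.38 and at 7.16 and 5.11, both also in the siNEG ab4729 list and in no siFLI1 list. Members near LRIG1, which encodes a membrane protein that restrains growth factor receptors, and SPRY4, a feedback inhibitor of receptor tyrosine kinase signalling, had 11.2 and 7.06 beside 18 units and 3.01 and 4.46 beside 19 units. The intronic member of GLG1 (chromosome 16, 74543035 to 74543479), beside 18 units, had 7.45 and 5.56 in siNEG. It was the exception among these in the ab4729 lists, which held it in both arms, at 14.9 in siNEG and 6.61 in siFLI1. The 497 lost members were nearest to 356 protein-coding genes. PAPPA, a protease of IGF-binding proteins, was nearest to 5 lost members at 5 distinct runs, and LDB2 and SS18 to 4 each at 2 runs.

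The gained members lay beside short runs, 28 of 46 with 4 units and 9 with 5. By the lower of the siFLI1 values, the strongest was in MED24, a subunit gene of the Mediator complex, at a promoter (chromosome 17, 40020865 to 40022529), with 8.10 and 7.86 in the siFLI1 lists. The ab4729 lists held it in both arms, at 4.83 in siNEG and 4.53 in siFLI1. The member near SMURF2, a ubiquitin ligase of the TGF-beta pathway (chromosome 17, 64700416 to 64701339), had 7.54 and 8.01 and was in neither ab4729 list. The next were nearest to HMGA2, GPC4, TNP1 and DNAJC18, with a fold enrichment from 6.77 to 8.03 in the siFLI1 lists. Each of these 4 was in the siFLI1 ab4729 list, and that of GPC4 also in the siNEG one, at 2.97 in siNEG and 6.37 in siFLI1.

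Members in all 4 lists were ranked by the lowest of their 4 values. The first by that order was at LAX1, an adaptor gene of lymphocyte signalling (chromosome 1, 203767338 to 203773370), with a run of 14 units inside. Its fold enrichment was 48.3 and 28.0 in siNEG and 26.2 and 24.6 in siFLI1. The member near FOS, an AP-1 subunit gene, was 16533 bp wide, with 14 units, and had 30.6 and 25.7 against 23.8 and 24.1. Both stayed in the top 2% of their siFLI1 lists, at percentiles from 98.6 to 99.1, and the arms did not overlap. The intronic member of FNBP1 had 56.7 and 26.0 in siNEG and 20.2 and 24.7 in siFLI1 beside 10 units. The member nearest to SARAF, beside 5 units, overlapped between the arms, with 31.9 and 19.3 against 26.8 in each siFLI1 list. That nearest to SPATA31C2, beside 6 units, had 31.2 and 22.9 against 17.6 and 22.7. The member nearest to AUTS2, beside 6 units, had 24.7 and 22.7 against 19.3 and 17.2.

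A list of 30 genes whose expression is known to depend on the fusion was drawn up from general knowledge. Earlier results of these data were in view when it was chosen, so the list is not independent of them. The protein-coding genes set beside it were not matched for GGAA runs or members nearby. A lost member lay within 250 kb of a TSS at 8 of the 30, where 6.18% of all protein-coding genes had one, and a gained member at 0 of the 30, where 1.29% had one. For lost members it was 7 of the 30 against 2.68% within 100 kb, and 12 of the 30 against 12.3% within 500 kb. A gained member lay within 500 kb of 1 of the 30, where 2.52% of all had one. The 8 genes with a lost member within 250 kb were FCGRT, NKX2-2, SOX6, STEAP1, EGR2, PAX7, CALCB and XG. Another 10 had members but none lost, and 12 had none. NKX2-2 encodes a homeodomain factor needed for growth of Ewing sarcoma cells. Its lost member (chromosome 20, 21576427 to 21578054) lay 63.2 kb from the TSS beside 20 units, with 12.3 and 11.3 in siNEG. A second NKX2-2 member, 42.7 kb away beside 9 units, was in all 4 lists with 20.5 and 25 in siNEG and 9.11 and 8.97 in siFLI1.

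SOX6, a developmental transcription factor gene, had 8 members, the most of the list. Of these 2 were lost, 1 was in all 4 lists and 2 were in 1 siNEG list only, while 3 were in both siNEG lists and 1 siFLI1 list. The lost one in a SOX6 intron (chromosome 11, 16021280 to 16022189), beside 11 units, had 4.77 and 6.68, and its neighbour across the same run had 9.51 and 8.07 in siNEG and 3.90 in siFLI1 replicate 2 only. CALCB, which encodes a calcitonin gene-related peptide, had a lost member on each side of 16 units in an intron, at 9.22 and 2.42 and at 6.99 and 4.70. EGR2, a zinc-finger factor, had a lost member on each side of 12 units, one 123 kb away at 5.66 and 3.34 and the other 122 kb away at 3.84 and 4.28. PAX7, a paired-box factor, had a lost member 18.7 kb away beside 18 units, at 5.29 and 4.29. FCGRT, the neonatal Fc receptor, had an intronic lost member 1.57 kb from its TSS beside 12 units, at 7.46 and 5.49. STEAP1, which encodes a cell-surface protein, had a lost member 47.6 kb away in an intron of STEAP2 beside 17 units, at 5.53 and 3.69. XG, a blood group glycoprotein gene, had a lost member 23.2 kb away over 9 units, at 9.10 and 5.26. Of its 2 members in all 4 lists, that beside 5 units overlapped between the arms, with 9.20 and 6.79 in siNEG and 8.48 and 13.9 in siFLI1, and that beside 10 units had 13.0 and 5.97 against 4.08 and 5.59.

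Other genes of the list had members in all 4 lists with lower fold enrichment in both siFLI1 lists. At VRK1, a chromatin kinase, the member held its run of 18 units at its centre and had 28.5 and 16.5 in siNEG and 3.89 and 8.27 in siFLI1. At KDSR, an enzyme of sphingolipid synthesis, it had 25.2 and 18.2 against 5.62 and 5.45 beside 16 units. At UGT3A2, a glycosyltransferase, it had 22.2 and 13.5 against 9.14 and 5.85 beside 11 units. At CAV1, which encodes caveolin, a member in a CAV2 intron beside 5 units had 47.1 and 51.3 against 12.0 and 16.3. IL1RAP, an interleukin receptor subunit, had 8.82 and 7.75 against 4.91 and 6.62. GSTM4, a glutathione transferase, overlapped between the arms, with 10.2 and 8.71 against 9.40 and 6.24. SOX2, DKK2, PRKCB and PPP1R1A had members that, of the 4 replicated lists, were in a single siNEG list each. A PRKCB member in an exon was also in the siFLI1 ab4729 list, at 5.57, and not in the siNEG one.

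**Figure D5:**
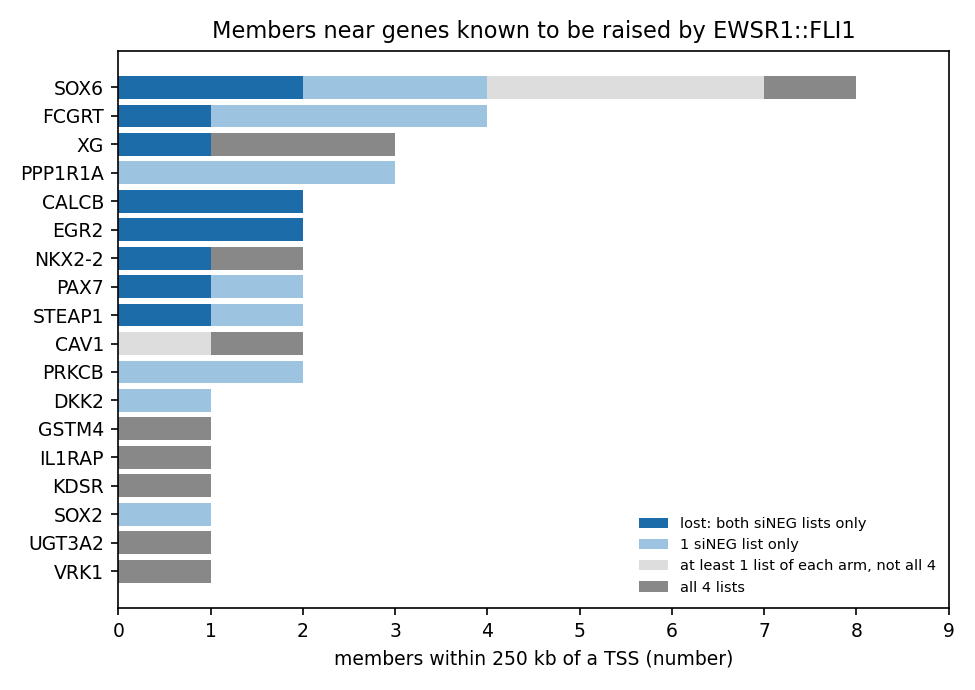
Number of members within 250 kb of a TSS (horizontal axis) for the 18 of 30 listed genes that had any (vertical axis), coloured by the lists that held them. SOX6 has 8 members, of which 2 were lost, and no gene has a gained member.

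The rule takes the centre of a region, and it leaves out wide regions that reach a run away from their centre. This was examined after the values were seen, for the 12 listed genes with no member, of which 9 had a region in all 4 lists whose edge was within 1 kb of a run. At NR0B1, a nuclear receptor gene with a known GGAA repeat in its promoter, a run of 11 units lay 1.37 kb from the TSS, and the region of 9095 bp had its centre 4578 bp away, with 16.7 and 15 in siNEG and 11 and 15 in siFLI1, so the arms met. At CCND1, the cyclin D1 gene, a region reaching a run of 15 units had 31.2 and 38.4 in siNEG and 9.25 and 9.18 in siFLI1, with its centre 1026 bp from the run. At KIT, a receptor tyrosine kinase gene, the values were 37.8 and 22.6 against 12 and 11, and at JAK1, a cytokine receptor kinase gene, 24.0 and 35.5 against 13.1 and 12.8. At ADGRG2, an adhesion receptor gene, they were 28.8 and 16.6 against 7.48 and 5.38, and at FEZF1, a zinc-finger factor gene, 21.3 and 16.5 against 7.76 and 10.6. The other regions overlapped between the arms: 1 region shared by LIPI and RBM11 had 15.2 and 10.5 against 8.45 and 14.2, and that of ABHD6 had 17.4 and 11.3 against 11.7 and 11.1. The highest peak of such a wide region need not be the one nearest the run.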

How the data were processed

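Peak lists of 14 immunoprecipitated libraries were used, 6 of them for H3K27ac. The deposited lists have no header and follow the narrowPeak layout, in which the authors give for each peak a fold enrichment (a ratio) and −log10 of its p-value and of its q-value. The submitters' processing notes name cutadapt 4.4, BWA 0.7.17, Picard 2.17.11, MACS2 2.1.1, GRCh38, hg38 and dm6. The control library and the threshold were not given in the sources used here, and the lowest −log10 q of the merged lists was 2.01 to 2.04. All peak contigs and ends fitted hg38. Depth per library was not given in the sources used here.

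Peaks were merged, matched to GGAA runs of hg38 and to GENCODE release 44, and counted with Python 3.11.15, numpy 2.4.6, pandas 2.3.3, scipy 1.17.1 and pysam 0.24.0, after the functions were tested on simulated data. A promoter position was within 1 kb of a TSS. Libraries were compared by exact two-sided permutation tests. Genes were named by rule: the nearest protein-coding TSS of the 10 strongest lost members, the 10 with the longest runs, the 6 strongest gained and 6 strongest shared members (strength being the lowest fold over the lists that held them), and members within 250 kb of the 30 listed genes. The members, lists and tests were chosen with earlier results of these data known. Input libraries were not used here. A marker gene and a sequence are not reported here. Alternatives covered the peak threshold, merging, window, run length, leaving out each replicate, the replicate block, the ab4729 pair and the distance to genes.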

Additional observations from a re-analysis of the deposited data

How the results depend on the processing

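Alternatives gave 83 values for 8 results: 56 stayed on their side, within the interval or within 1.5 times the count, 27 moved and 0 reversed. Only log2 ratios could be labelled reversed, by a change of sign. Counts and shares could only stay or move, so for them the 0 was fixed in advance. The log2 ratio of members held lay between -1.58 (at least 10 units) and -0.23 (runs inside the region only), and between -1.21 and -1.05 leaving out 1 library. With 2 libraries per arm, no setting could reach significance. With the replicate block, the mean of the log2 ratios within replicate numbers was -1.10 for members held (exact sign-flip test, p = 0.5) and -0.85 for fold enrichment (exact sign-flip test, p = 0.5). Same-numbered libraries did not deviate together (correlation 0.011 over 22724 regions in all 4 lists and 0.052 over the 368 members among them). This measure cannot tell whether same-numbered libraries were prepared together. The labels of the siNEG H3K27ac libraries add a Roman numeral that those of the siFLI1 H3K27ac libraries lack.

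The lost members numbered 298 when gaps of up to 500 bp were merged, 200 within 500 bp of the centre and 92 inside the region only, and 560 to 856 leaving out 1 library. The gained members numbered 18 within 500 bp, 96 within 2 kb, 11 inside the region, 99 with at least 3 units, 9 with at least 6 and 4 with at least 10, and 53 to 124 leaving out 1 library. For these windows and run lengths the gained share of members lay between 0.44% (at least 10 units) and 4.11% (at least 3 units), with 8.19% of all regions gained. Leaving out 1 library it lay between 3.27% and 7.44%, with 11.4% and 25.2% of all regions gained. The percent of members lost was 31.7 with a −log10 q of at least 5, 25.4 with gaps merged, 25.1 within 500 bp, 21.8 within 2 kb, 11.1 inside the region, 22, 35.7 and 38.0 with at least 3, 6 and 10 units, 24.2 when absence required no peak within 1 kb (3.31 of all regions), and 33.6 to 52.8 leaving out 1 library. The lost share of all regions was then 7.07 and 7.78 percent without a siFLI1 library and 19.2 and 19.4 percent without a siNEG library, so without the latter the ratio of the member share to that of all regions was smaller than with all 4 lists (29.3 to 4.86). Of lost members in exactly 1 ab4729 list, 98.2% were in the siNEG list with a −log10 q of at least 5 and 100% with equal numbers of the strongest peaks. Windows, run lengths and left-out libraries change by construction which regions are counted; for the other settings the cause was not tested. Settings for fold enrichment and H3K4me3 and those leaving out libraries for the ab4729 share and the gene list were chosen after seeing the data. Unknown read depth limits every absence from a list.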
